A study of Mus musculus with 8 samples.

Results

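Proteasome subunit genes were followed across the 3 sample groups of a mouse skin series. Every gene whose platform annotation symbol begins with Psma, Psmb, Psmc, Psmd or Psme followed by a digit was taken, which gave 44 genes of the 22180 that the arrays measured with exactly 1 symbol. By known role, 13 belong to the constitutive core particle, 17 to the regulatory cap and 3 are the catalytic subunits of the immunoproteasome. A further 2 are tissue-restricted core subunits, 3 assist assembly of the cap, and 4 belong to the PA28 and PA200 activators. The remaining 2, Psmc3ip and Psme3ip1, match the symbol pattern without being subunits: Psmc3ip is a cofactor of meiotic recombination, and Psme3ip1 encodes a protein that binds the activator subunit Psme3.

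The proteasome is the cell's main protease for proteins tagged with ubiquitin. Its barrel-shaped core holds the cutting sites inside stacked rings of alpha and beta subunits. The cap recognises ubiquitin chains, removes them and uses a ring of ATPases to unfold the substrate and thread it into the core. Interferon-stimulated cells replace the catalytic beta subunits by immunoproteasome versions, whose products include peptides that MHC class I molecules display at the cell surface.

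Cells were sorted from dissociated whole skin as positive for green fluorescent protein and negative for p75, and their amplified RNA was hybridised to 8 arrays. The P21_KO group (4 arrays) came from mice aged 21 days that were fl/fl for B-raf and for another gene. The P21_WT group (2 arrays) came from mice of the same age with +/+ alleles at both genes, and the P4_WT group (2 arrays) from pups aged 4 days with those same +/+ alleles. All 3 groups carried TyrCre/° and the Z/EG reporter on a mixed C57Bl/6 and 129/Sv background, so Cre under a tyrosinase promoter, which is active in the pigment cell lineage, marked the sorted cells in controls too. Per the labels, the P4 cells are melanoblasts, the precursors of pigment cells, and the P21 cells are melanocyte stem cells. One number, unexplained in the sources used here, is common to the labels of P21_KO replicates 2, 3 and 4. Nothing beyond "biological replicate" ties these 3 arrays to separate mutant animals, so p-values describe variation among arrays, part of which may be technical.

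All 9 pigment cell markers read above 3.23, the median of all log2 values, on every array. Their mean level was 6.99 to 8.53 on the P21_KO arrays, 8.81 and 9.04 on the P21_WT arrays, and 9.70 and 9.74 on the P4_WT arrays. P4_WT replicate 2 stood apart from the other 7 arrays. It had 14 of 15 immune markers and 8 of 8 endothelial markers at their highest value of all arrays, with a mean immune level of 5.50 against 3.02 on P4_WT replicate 1 and 3.09 to 3.62 on the P21 arrays. Its value of Xist, on the X chromosome, was 8.94, against 1.95 to 2.77 elsewhere. That of Eif2s3y, on the Y chromosome, was 1.94, against 6.92 to 7.87. The 2 P4_WT arrays thus differed in sex-linked genes, and any part of sex in the members' values was not tested. Of the genes labelled fl/fl, Braf had a mean of 6.26 ± 0.41 on the 4 P21_KO arrays and 6.59 ± 0.85 on the 2 P21_WT arrays (SD), a log2 change of -0.34 ± 0.36 (SE) with a limma adjusted p of 0.944. Whether its probes lie in the deleted part of the gene is not given in the sources used here, so this value does not check the genotype labels.

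Most proteasome genes read lower in P21_KO and in P21_WT than in P4_WT, largely by less than 1 log2 unit. In P21_KO against P4_WT, 39 of the 44 genes had a log2 change below 0, as did 47.3% of all genes and 56% of the brighter ones, whose mean over the arrays is above the median of such means. Of the 44, 9 fell past the threshold (limma, Benjamini-Hochberg adjusted p under 0.05, over 22180 genes). These were Psma1, Psmb2, Psmb5, Psmd2, Psmd8, Psmd10, Psmd13, Psmd14 and Psme1, and no member rose. The share called was 20.5%, against 7.73% of all genes in either direction and 4.68% lower, and against 8.32% lower among the brighter genes, to which 41 of the 44 members belong. In P21_WT against P4_WT, 38 of 44 had a log2 change below 0, as did 49.8% of all genes and 55.4% of the brighter ones. There 0 members passed limma's threshold, where 1.61% of all genes did and 1.38% of the brighter ones were called lower. At an unadjusted p under 0.05, 14 members were lower and 1 higher there, against 7.46% and 5.17% of all genes, and 12.5% lower among the brighter ones. The 2 comparisons share the P4_WT arrays, and P21_KO differs from P4_WT in both age and genotype.

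The median log2 change of the members was -0.55 in P21_KO against P4_WT, where it was 0.02 over all genes. It was -0.40 in P21_WT against P4_WT, where it was 0.0022 over all genes. The highest of the 8 values lay on a P4_WT array for 29 of the 44 members, against 6816 of all 22180 genes and 4392 of the 11090 brighter ones. On single arrays the members' median deviation from each gene's own mean was 0.32 and 0.31 in P4_WT, -0.04 and -0.03 in P21_WT, and -0.26 to -0.04 in P21_KO. The P4_WT arrays were thus the highest 2 of the 8. Since the sorted cells were measured in bulk, fewer cells of a type and less RNA per cell cannot be told apart.

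**Figure D1:**
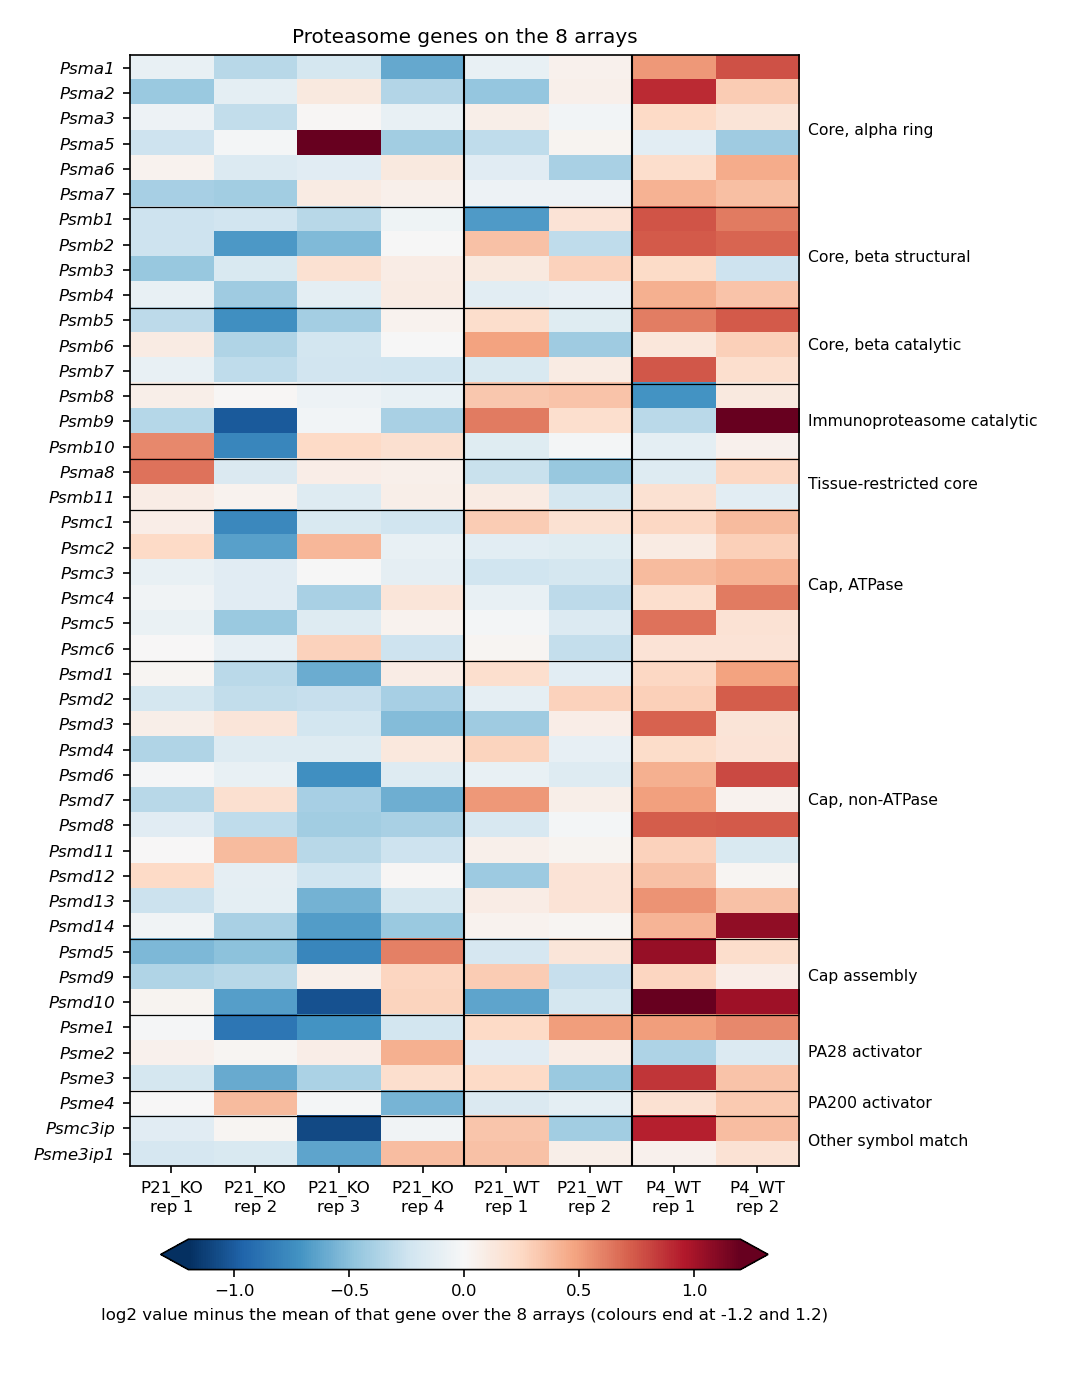
Each row is 1 of the 44 genes, grouped by role, and each column 1 of the 8 arrays. Colour gives the log2 value minus that gene's mean over the 8 arrays. Most core and cap genes are red on both P4_WT arrays, while Psmb8 is highest on the P21_WT arrays and Psmb9 is highest on P4_WT replicate 2, at 5.81, followed by the P21_WT arrays, at 5.17 and 4.75.

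Which members passed the threshold in P21_KO against P4_WT depended on single arrays. Each fit with 1 array left out has fewer arrays for every gene. The share of all genes called in those fits is not given here. The count of 9 became 4 without P4_WT replicate 1 (where Psmb9 was among them), 2 without P4_WT replicate 2, and 5, 4 and 2 without P21_KO replicates 1, 2 and 3. Psmd8 was the only gene called in all 8 fits that left out 1 array, and Psma1 was called in 6, Psmd14 in 5 and Psmb5 in 4 of them. Psmb2 and Psmd2 were called in 3, Psmd10 in 2, and Psmd13 and Psme1 in 1. Without P4_WT replicate 2, the array with immune and endothelial signal, the 2 genes called were Psmd8 and Psmb7, and the members' median was -0.49.

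In the core particle, the median log2 change of the 13 genes was -0.56 in P21_KO against P4_WT and -0.51 in P21_WT against P4_WT. Psma1, Psmb2 and Psmb5 fell in the first comparison and none passed in the second. Over all genes 4.68% and 0.852% were called lower in these comparisons, and among the brighter ones 8.32% and 1.38%. Of the 13, 12 were below 0 in the first comparison and 11 in the second, and 11 and 10 had groups that did not overlap, with the P4_WT arrays higher. Over all genes, non-overlapping groups with P21_KO lower made up 15.5%, and with P21_WT lower 22.1%. Among the brighter genes these shares were 24.4% and 29.3%.

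The alpha rings form the ends of the core and gate entry to it. Psma1, one of the alpha ring subunits, read 6.08, 5.83, 5.96 and 5.56 on the P21_KO arrays, 6.08 and 6.22 on the P21_WT arrays, and 6.68 and 6.93 on the P4_WT arrays. Both P4_WT arrays lay above all 6 arrays of the older mice. Its log2 change was -0.95 ± 0.18 (SE) in P21_KO against P4_WT (limma adjusted p = 0.0168) and -0.66 ± 0.21 in P21_WT against P4_WT (adjusted p = 0.205). Psma6 read 8.46, 8.26, 8.29 and 8.54 in P21_KO, 8.29 and 8.03 in P21_WT, and 8.63 and 8.86 in P4_WT. Its groups did not overlap between either set of older mice and P4_WT, but neither log2 change, -0.36 for P21_KO and -0.59 for P21_WT, passed the test. Among the alpha ring genes the lowest change in P21_WT against P4_WT was that of Psma2 at -0.80. The highest was that of Psma5 at 0.15, whose group means of 2.50 in P21_KO, 2.16 in P21_WT and 2.02 in P4_WT lie under the median of all values.

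Among the beta subunits without a cutting site, Psmb2 read 7.28, 6.85, 7.0 and 7.52 on the P21_KO arrays, 7.88 and 7.22 on the P21_WT arrays, and 8.27 and 8.23 on the P4_WT arrays. It was 2.13-fold lower in P21_KO than in P4_WT (log2 change -1.09 ± 0.24, limma adjusted p = 0.0325). Its P21_WT arrays, which overlapped those of P21_KO, had a change of -0.70 against P4_WT that did not pass. Psmb1 read 7.93, 7.95, 7.84 and 8.12 in P21_KO, 7.49 and 8.33 in P21_WT, and 8.92 and 8.79 in P4_WT. Both P4_WT arrays were above the rest, and the change of -0.90 in P21_KO against P4_WT stood just outside the threshold (limma adjusted p = 0.0504). That in P21_WT against P4_WT was -0.95 ± 0.26 (adjusted p = 0.15), where the P21_WT arrays had an SD of 0.60 (n = 2). Psmb3 had mean values of 3.68 in P21_KO, 3.97 in P21_WT and 3.77 in P4_WT, not far above 3.23, the median of all values.

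Cutting is done by Psmb5, which has the chymotrypsin-like site, Psmb6, with the caspase-like site, and Psmb7, with the trypsin-like site. Psmb5 read 7.88, 7.45, 7.78 and 8.23 on the P21_KO arrays, 8.40 and 8.04 on the P21_WT arrays, and 8.80 and 8.92 on the P4_WT arrays. The P4_WT arrays were above all others, while the P21_KO and P21_WT arrays overlapped. Its mean was 7.84 ± 0.32 over the 4 P21_KO arrays and 8.86 ± 0.09 over the 2 P4_WT arrays (SD), a 2.03-fold fall (limma adjusted p = 0.029). Psmb7 read 8.47, 8.25, 8.33 and 8.32 in P21_KO, 8.38 and 8.66 in P21_WT, and 9.31 and 8.76 in P4_WT. These groups too were separate between the ages, with a log2 change of -0.69 for P21_KO (limma adjusted p = 0.0649) and -0.51 for P21_WT (adjusted p = 0.369). Psmb6 read 7.48, 7.01, 7.16 and 7.37 in P21_KO, 7.87 and 6.96 in P21_WT, and 7.52 and 7.67 in P4_WT. Its P21_WT arrays lay on either side of every other array, and neither change against P4_WT passed (-0.34 for P21_KO and -0.18 for P21_WT).

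In the cap, all 17 genes had a log2 change below 0 in P21_KO against P4_WT, with a median of -0.56, and Psmd2, Psmd8, Psmd13 and Psmd14 fell. In P21_WT against P4_WT, 16 of 17 were below 0, with a median of -0.33, and none passed the threshold. The groups did not overlap, with P4_WT higher, for 12 of the 17 in either comparison. Over all genes this held for 15.5% with P21_KO lower and 22.1% with P21_WT lower, and among the brighter ones for 24.4% and 29.3%. In P21_KO against P4_WT, 4.68% of all genes and 8.32% of the brighter ones were called lower. For P21_WT against P4_WT these shares were 0.852% and 1.38%. The difference between core and cap was not tested.

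Psmd8, a subunit of the lid of the cap, had the smallest p of all members in both comparisons with P4_WT. It read 8.62, 8.45, 8.33 and 8.37 on the P21_KO arrays, 8.56 and 8.73 on the P21_WT arrays, and 9.48 on both P4_WT arrays. All 6 arrays of the older mice lay under the P4_WT pair by more than the spread within any group. The log2 change was -1.04 ± 0.15 (SE) in P21_KO against P4_WT, 2.06-fold lower (limma adjusted p = 0.00483). In P21_WT against P4_WT it was -0.83 ± 0.17, 1.78-fold lower (limma adjusted p = 0.0551), which passed with a trended and robust prior or with array weights.

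Psmd14 is the lid's deubiquitinase, which cuts ubiquitin chains off the substrate. It read 5.65, 5.30, 5.02 and 5.24 in P21_KO, 5.73 and 5.71 in P21_WT, and 6.09 and 6.75 in P4_WT. The 3 groups were separate, with P21_KO lowest and P4_WT highest, and the P21_KO change against P4_WT was -1.12 ± 0.23 (limma adjusted p = 0.0232). Its partner in the lid, Psmd7, showed no separation by age, at 6.64, 7.16, 6.57 and 6.38 in P21_KO, 7.49 and 7.04 in P21_WT, and 7.46 and 7.01 in P4_WT. Psmd2, the large scaffold of the cap, read 6.08, 5.99, 6.02 and 5.89 in P21_KO, 6.18 and 6.57 in P21_WT, and 6.58 and 7.02 in P4_WT. Its groups did not overlap, and it fell 1.74-fold in P21_KO against P4_WT (limma adjusted p = 0.0327). Psmd13, a lid subunit, read 5.17, 5.31, 4.86 and 5.21 in P21_KO, 5.52 and 5.59 in P21_WT, and 5.96 and 5.78 in P4_WT. Its groups were ordered in the same way without overlap, and its change of -0.73 ± 0.17 in P21_KO against P4_WT passed (limma adjusted p = 0.0328). The lid subunit Psmd11 was the member of the cap nearest to 0, at -0.10 for P21_KO and -0.00056 for P21_WT.

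The 6 ATPases Psmc1 to Psmc6, which unfold the substrate, were all below 0 in both comparisons with P4_WT, from -0.59 to -0.18 in P21_KO and from -0.63 to -0.07 in P21_WT, and none passed. Psmc3 read 6.26, 6.21, 6.34 and 6.24 on the P21_KO arrays, 6.10 and 6.13 on the P21_WT arrays, and 6.72 and 6.77 on the P4_WT arrays. It varied little within groups, and its P4_WT arrays were highest. The log2 change was -0.63 ± 0.15 in P21_WT (limma adjusted p = 0.0901) and -0.49 ± 0.13 in P21_KO (adjusted p = 0.0585).

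Psmd10, also called gankyrin, is a chaperone that helps to assemble the cap's ATPase ring and is encoded on the X chromosome. It read 5.98, 5.29, 4.90 and 6.21 on the P21_KO arrays, 5.32 and 5.74 on the P21_WT arrays, and 7.16 and 6.97 on the P4_WT arrays. It had the largest change of all members against P4_WT in both comparisons, with the P4_WT pair above all other arrays and the P21_KO arrays widely spread. The change was -1.47 ± 0.35 in P21_KO, 2.76-fold lower (limma adjusted p = 0.0424), and -1.54 ± 0.41 in P21_WT, 2.90-fold lower (adjusted p = 0.133). The P4_WT arrays differed in Xist, and any part of that difference in the Psmd10 values was not tested. The other cap chaperones, Psmd5 and Psmd9, had changes of -0.93 and -0.26 in P21_KO and -0.66 and -0.15 in P21_WT, without a call.

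**Figure D2:**
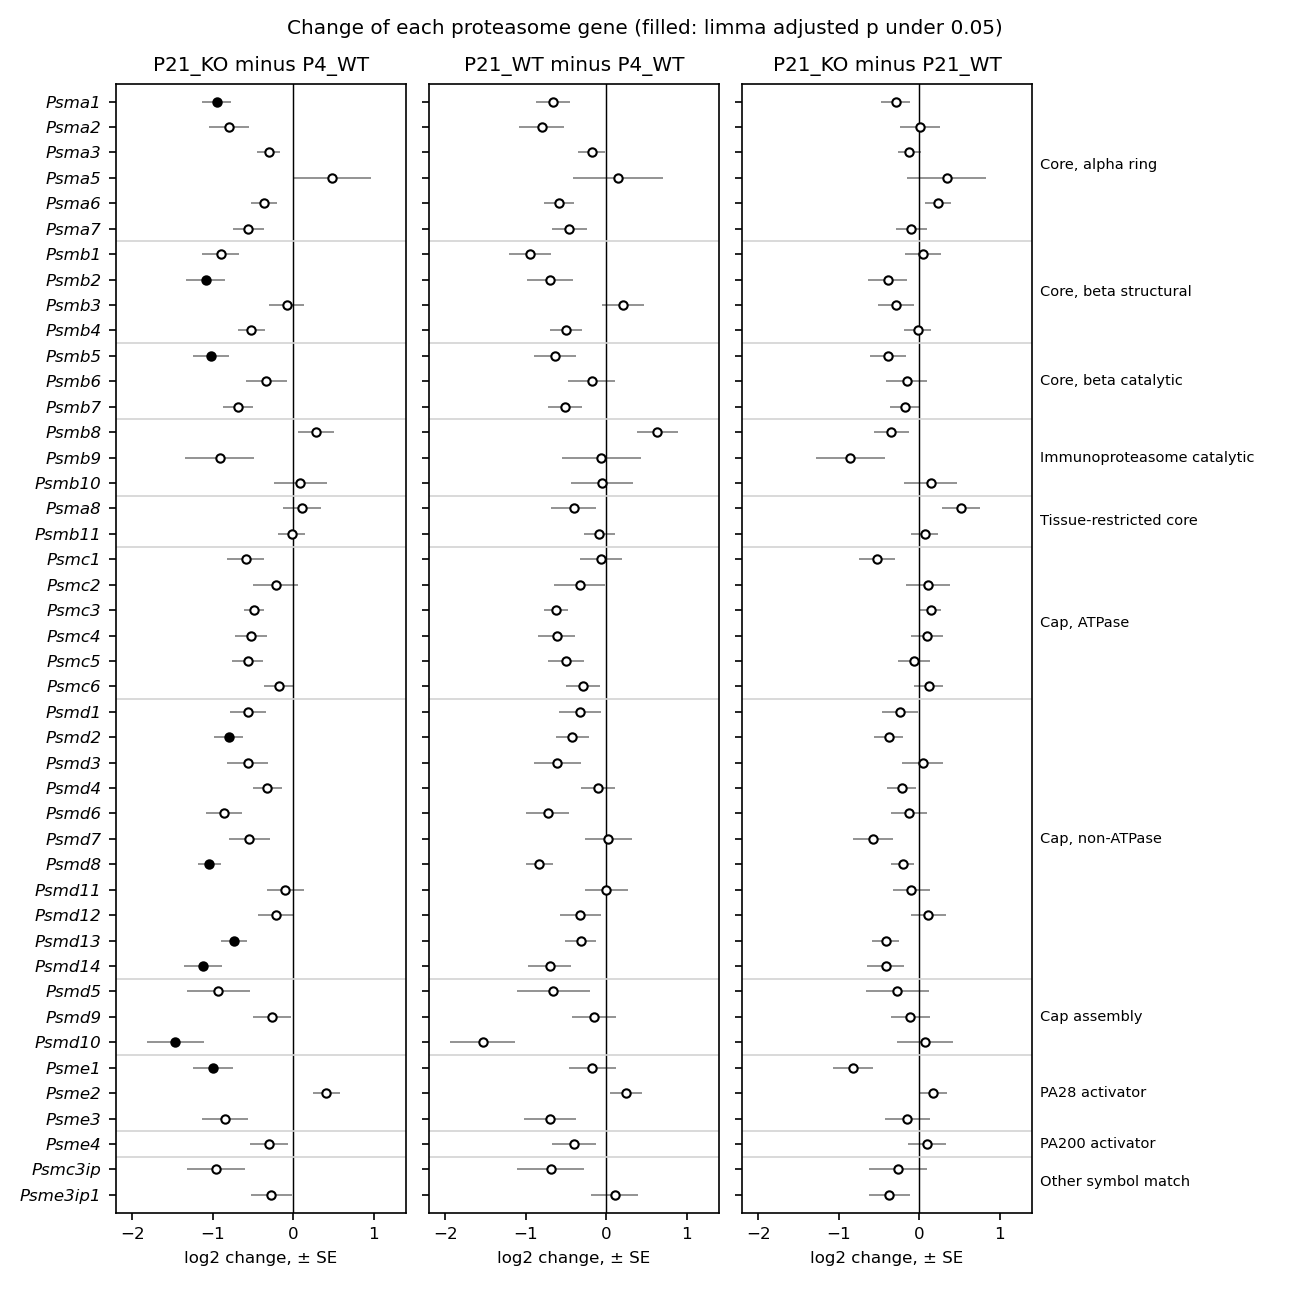
Log2 change ± SE of each gene in 3 comparisons, from limma. Filled points have an adjusted p under 0.05. The 9 filled points all lie left of 0 in P21_KO minus P4_WT, and the other panels have none. Core and cap points lie mostly left of 0 in both comparisons with P4_WT.

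Against P4_WT, immunoproteasome subunits had small median changes and no calls. Psmb8, Psmb9 and Psmb10 take the places of Psmb5, Psmb6 and Psmb7. Their median log2 change was 0.09 in P21_KO against P4_WT and -0.05 in P21_WT against P4_WT, and 0 of 3 passed in either. The single changes in P21_KO against P4_WT ran from -0.92 for Psmb9 (limma adjusted p = 0.278) to 0.28 for Psmb8. That of Psmb9 was -1.71 without P4_WT replicate 1, where it passed (limma adjusted p = 0.0447), and -0.12 without P4_WT replicate 2 (adjusted p = 0.923). That of Psmb8 was -0.13 and 0.70 without these arrays, and neither passed. The difference from the core genes was not tested, since it rests on 3 genes chosen with earlier results known.

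Psmb8 read 4.14, 4.08, 4.01 and 3.97 on the P21_KO arrays, 4.39 and 4.41 on the P21_WT arrays, and 3.35 and 4.18 on the P4_WT arrays. The P21_WT pair was highest and the P4_WT arrays had an SD of 0.58 (n = 2). The value of 3.35 on P4_WT replicate 1 lies near 3.23, the median of all values. The change of Psmb8 in P21_WT against P4_WT was 0.63 ± 0.25 (limma unadjusted p = 0.0354, adjusted p = 0.34), the highest of all members. It was 0.22 without P4_WT replicate 1 and 1.05 without P4_WT replicate 2, and passed in neither fit. Psmb9 read 4.20, 3.54, 4.52 and 4.15 in P21_KO, 5.17 and 4.75 in P21_WT, and 4.23 and 5.81 in P4_WT. The P4_WT arrays lie on either side of the P21_WT pair, and the change in P21_WT against P4_WT was -0.06 over all arrays but 0.73 without P4_WT replicate 2. Psmb10 read 6.33, 4.97, 5.99 and 5.95 in P21_KO, 5.61 and 5.72 in P21_WT, and 5.64 and 5.80 in P4_WT. Its spread within P21_KO, 0.59 in SD (n = 4), exceeded every difference between its group means. Psmb8, Psmb9 and, by less, Psmb10 were higher on P4_WT replicate 2 than on replicate 1, as were 14 of 15 immune markers. The part of immune cells in these values was not tested.

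PA28 is a ring of Psme1 and Psme2, both induced by interferon, that opens the core without ubiquitin. Both genes lie on chromosome 14, and their changes against P4_WT had opposite signs. Psme1 read 5.38, 4.53, 4.67 and 5.17 on the P21_KO arrays, 5.63 and 5.89 on the P21_WT arrays, and 5.89 and 5.97 on the P4_WT arrays. All 4 P21_KO arrays were below all 4 wild-type arrays, and the change of -0.996 ± 0.25 against P4_WT passed narrowly (limma adjusted p = 0.0498). Psme2 read 6.14, 6.12, 6.18 and 6.52 in P21_KO, 5.96 and 6.19 in P21_WT, and 5.72 and 5.93 in P4_WT. Here P4_WT was lowest, and the change of 0.41 ± 0.17 in P21_KO against P4_WT did not pass (limma adjusted p = 0.218). It was the one member with an unadjusted p under 0.05 in the higher direction in that comparison, where 8.10% of all genes met that limit.

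Psme3 forms a nuclear relative of PA28 by itself. It read 5.14, 4.75, 4.98 and 5.55 in P21_KO, 5.59 and 4.91 in P21_WT, and 6.21 and 5.69 in P4_WT. The P4_WT arrays were higher than all others, with changes of -0.85 in P21_KO and -0.70 in P21_WT that did not pass. Psme4, the single-chain activator PA200, read 6.70, 7.07, 6.66 and 6.14 in P21_KO, 6.51 and 6.57 in P21_WT, and 6.88 and 7.0 in P4_WT. Its P21_KO arrays spanned the P4_WT values.

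**Figure D3:**
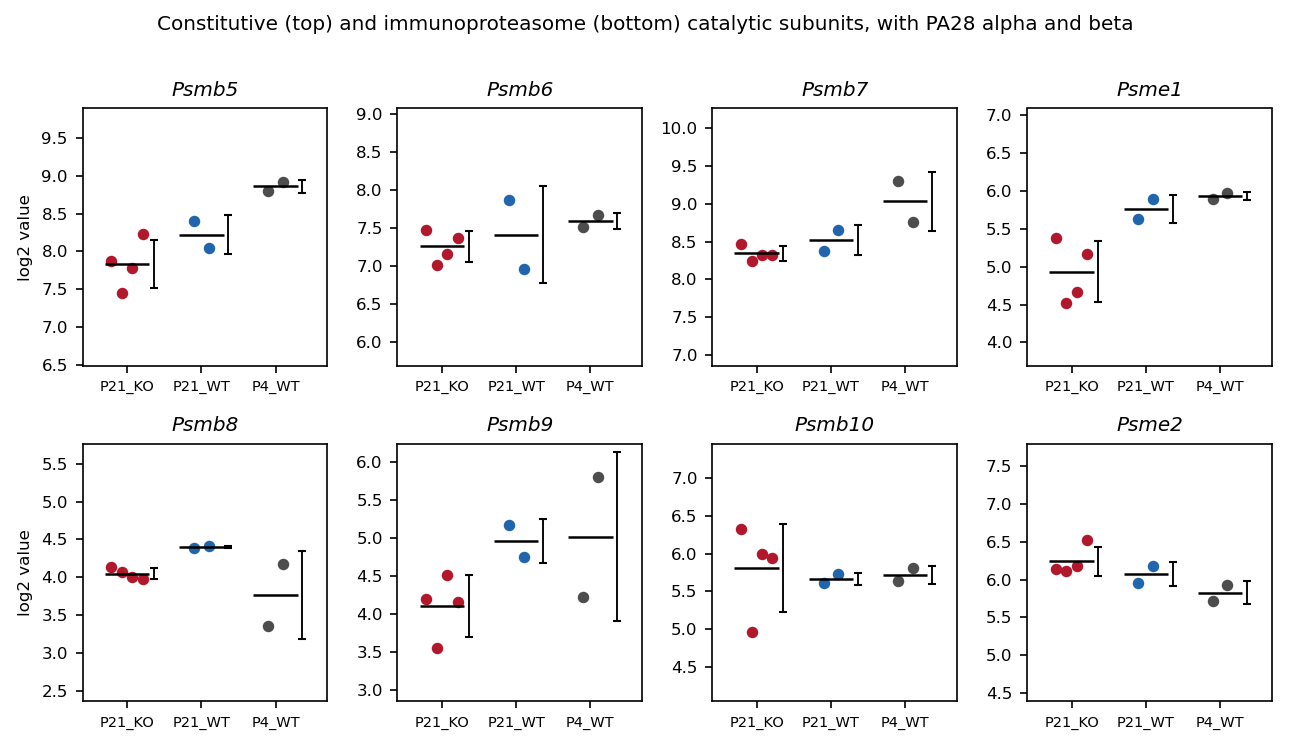
Log2 value on each array (points) with group mean (line) and SD (bar) for the constitutive catalytic subunits and Psme1 (top row) and the immunoproteasome subunits and Psme2 (bottom row). Each panel spans the same number of log2 units. Psmb5 and Psmb7 are highest on the P4_WT arrays, whereas Psmb8 is highest on the P21_WT arrays, at 4.39 and 4.41.

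Psmd8, with the smallest p against P4_WT, the catalytic Psmb5 and its immunoproteasome counterpart Psmb8, Psmb9, and the PA28 gene Psme1 were picked as examples. Their 5 promoters are shown. Each is 250 bases before to 50 bases after the annotated start, 5′ to 3′ on the gene's strand, from RefSeq on GRCm38.p6. Capitals mark matches to 1 of 3 motifs searched on both strands: TGACNNNGC, the core of the antioxidant response element bound by the factors Nfe2l1 and Nfe2l2; TTCNNNGAA, the gamma activated site bound by STAT factors; and the core of the interferon-stimulated response element, which is GAAA, any 2 bases, and GAAA.
Psmd8 (chr7:29180624-29180923, minus strand): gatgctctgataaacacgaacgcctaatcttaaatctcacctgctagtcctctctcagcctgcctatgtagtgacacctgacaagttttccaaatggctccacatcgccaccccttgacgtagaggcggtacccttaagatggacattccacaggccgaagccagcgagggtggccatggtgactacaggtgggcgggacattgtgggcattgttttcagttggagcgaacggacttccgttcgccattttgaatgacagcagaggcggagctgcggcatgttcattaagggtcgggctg
Psmb5 (chr14:54617946-54618245, minus strand): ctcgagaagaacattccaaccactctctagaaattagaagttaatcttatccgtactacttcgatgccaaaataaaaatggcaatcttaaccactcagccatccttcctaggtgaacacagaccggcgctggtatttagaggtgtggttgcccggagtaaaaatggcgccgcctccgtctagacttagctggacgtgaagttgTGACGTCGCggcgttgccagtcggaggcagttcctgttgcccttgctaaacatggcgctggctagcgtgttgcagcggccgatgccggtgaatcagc
Psme1 (chr14:55578244-55578543, plus strand): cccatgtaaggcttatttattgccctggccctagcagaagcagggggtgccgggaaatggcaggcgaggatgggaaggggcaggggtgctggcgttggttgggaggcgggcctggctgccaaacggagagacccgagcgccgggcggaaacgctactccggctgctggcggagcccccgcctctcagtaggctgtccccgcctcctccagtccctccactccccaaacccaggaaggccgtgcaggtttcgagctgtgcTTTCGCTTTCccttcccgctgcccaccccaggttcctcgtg
Psmb8 (chr17:34197945-34198244, plus strand): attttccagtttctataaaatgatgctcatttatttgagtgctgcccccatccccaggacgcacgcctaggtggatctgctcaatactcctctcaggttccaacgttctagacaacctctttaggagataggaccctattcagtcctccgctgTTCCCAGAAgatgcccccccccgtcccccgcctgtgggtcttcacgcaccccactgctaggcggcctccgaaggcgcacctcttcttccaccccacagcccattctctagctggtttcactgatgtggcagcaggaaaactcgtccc
Psmb9 (chr17:34187281-34187580, minus strand): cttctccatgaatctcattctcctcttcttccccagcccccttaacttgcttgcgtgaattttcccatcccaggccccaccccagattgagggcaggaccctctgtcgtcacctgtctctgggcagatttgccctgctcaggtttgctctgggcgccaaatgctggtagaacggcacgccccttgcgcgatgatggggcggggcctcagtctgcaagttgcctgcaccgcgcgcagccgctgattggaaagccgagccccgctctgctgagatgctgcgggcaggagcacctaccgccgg

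The capitals are an antioxidant response element core in Psmb5, the interferon-stimulated core on the opposite strand in Psme1, and a gamma activated site in Psmb8. Psmd8 and Psmb9 hold none of the 3 motifs in these windows. The Psmb9 window overlaps that of Tap1, which is transcribed the other way from a start 226 bases away on chromosome 17, by 275 bases. Of the 44 member symbols, 37 matched a RefSeq promoter. TGACNNNGC was found in 6 of the 37 (16.2%), against 12.5% of the 27025 promoters of the table, in Psmb5, Psmb6, Psmc6, Psmd9, Psmd12 and Psme4. TTCNNNGAA was found in 2 (5.41%), Psmb8 and Psmd2, against 8.47% of all promoters. The interferon-stimulated core was found in 4 (10.8%), Psmb3, Psmd4, Psmd9 and Psme1, against 3.49%. Of the 9 genes that fell in P21_KO against P4_WT, 8 had a promoter in the table. Psmb5 held the first motif, Psmd2 the second and Psme1 the third, and the others held none.

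The P21_KO and P21_WT groups compare the labelled knockout with wild type at 21 days. No member passed in P21_KO against P21_WT with limma, as was the case for 0% of the 22180 genes, of which 1447 had an unadjusted p under 0.05. The median log2 change was -0.13, with 28 members below 0 and 16 above, where 48.6% of all genes and 52.2% of the brighter ones were below 0. At an unadjusted p under 0.05, 3 members were lower (Psme1, Psmc1 and Psmd13) and none higher, against 3.69% and 2.84% of all genes. Among the brighter genes, 5.78% were lower at that limit. The groups did not overlap for 7 members with P21_KO lower and 2 with P21_KO higher. Over all genes 7.64% and 7.75% met these limits, and 9.85% of the brighter ones were lower. By role, the median change was -0.12 for the 13 core genes, -0.13 for the 17 cap genes and -0.35 for the 3 immunoproteasome genes. Without overlap and lower in P21_KO were 0 core genes, 4 cap genes and 2 immunoproteasome genes, Psmb8 and Psmb9. These differences between roles were not tested.

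Psme1 had the smallest p of the members by genotype, with a change of -0.82 ± 0.25 (limma unadjusted p = 0.0105, adjusted p = 0.609). Psmd13 followed with -0.42 ± 0.17 (limma adjusted p = 0.736). The ATPase Psmc1 read 7.71, 6.85, 7.44 and 7.38 in P21_KO, 7.93 and 7.81 in P21_WT, and 7.87 and 8.00 in P4_WT. It was lower on every P21_KO array than on any wild-type array, but with limma its change of -0.52 against P21_WT had an adjusted p of 0.766. Psmd7 was at -0.57 and Psmb9 at -0.86, the lowest change of any member, with limma adjusted p-values of 0.773 and 0.818. Psma8, a core subunit of the testis, read 2.99, 2.16, 2.41 and 2.40 in P21_KO, 2.07 and 1.88 in P21_WT, and 2.18 and 2.58 in P4_WT, all under the median of all values. At the same time pigment cell markers differed between these groups in mean level, 6.99 to 8.53 in P21_KO against 8.81 and 9.04 in P21_WT, with 7 of 9 lower at an unadjusted p under 0.05. Their part in the members' values was not tested.

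Genes that work with the proteasome were measured for 20 symbols. In P21_KO against P4_WT, 19 of the 20 were below 0 and 4 fell (20%), Pomp, Sem1, Uchl5 and Vcp. Over all genes 47.3% were below 0 and 4.68% fell there, and among the brighter genes 56% and 8.32%. In P21_WT against P4_WT, 17 were below 0 and none passed. In P21_KO against P21_WT, 9 were below 0, 11 above and none passed.

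Pomp, the maturation factor of the core, read 6.89, 6.21, 6.27 and 6.75 on the P21_KO arrays, 7.48 and 7.15 on the P21_WT arrays, and 7.77 and 7.55 on the P4_WT arrays. The P21_KO arrays were lowest throughout, with a log2 change of -1.13 ± 0.23 against P4_WT (limma adjusted p = 0.0229) and -0.78 against P21_WT (adjusted p = 0.609). Uchl5, a deubiquitinase that binds the cap, read 5.86, 5.18, 5.15 and 4.99 in P21_KO, 6.38 and 6.22 in P21_WT, and 7.64 and 6.69 in P4_WT. The 3 groups did not overlap, and the P21_KO change against P4_WT was -1.87 ± 0.31 (limma adjusted p = 0.0101). Sem1, a small lid subunit with a symbol outside the Psm pattern, was at -0.94 in that comparison (limma adjusted p = 0.0423). Vcp, an unfoldase that hands substrates to the proteasome, was at -0.67 (limma adjusted p = 0.0406). Nfe2l1 and Nfe2l2, transcription factors that activate proteasome genes, had changes of -0.05 and -0.02 in P21_KO and 0.07 and -0.21 in P21_WT against P4_WT, none of which passed. In the same list, Stat3 had changes of 0.84 in P21_KO (limma adjusted p = 0.0742) and 0.60 in P21_WT against P4_WT. Those of Ngly1 were -0.54 and -0.19, and neither gene was called.

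MHC class I presentation genes, which handle peptides that proteasomes make, included Tap1 and H2-K1, which rose. Of 7 measured, 6 were higher in P21_WT than in P4_WT, with a median of 0.40, and Tap1 rose. In P21_KO against P4_WT, 5 of 7 were higher, and Tap1 and H2-K1 rose. Rises made up 0.757% of all genes in the first comparison and 3.05% in the second. Tap1, a subunit of the peptide transporter, read 4.92, 5.63, 5.16 and 5.29 on the P21_KO arrays, 5.77 and 6.10 on the P21_WT arrays, and 4.35 and 4.29 on the P4_WT arrays. All arrays of the older mice were above both P4_WT arrays, by 1.62 ± 0.24 in P21_WT (limma adjusted p = 0.0187) and 0.93 ± 0.21 in P21_KO (adjusted p = 0.0337). Its head-to-head neighbour Psmb9 read 4.23 and 5.81 on those P4_WT arrays. H2-K1, a class I heavy chain, read 6.54, 6.61, 6.08 and 6.77 in P21_KO, 6.56 in both P21_WT arrays, and 4.65 and 5.70 in P4_WT, and its rise in P21_KO was 1.32 ± 0.30 (limma adjusted p = 0.0328). All 7 genes had a change below 0 in P21_KO against P21_WT, from -0.69 to -0.06, and none passed.

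Signals of other cells and of dividing cells also differed with age. All 9 measured cell cycle genes were lower at 21 days, with mean levels of 3.33 to 3.69 on the P21_KO arrays, 3.85 and 3.93 on the P21_WT arrays, and 6.48 and 6.85 on the P4_WT arrays. With limma, 8 of the 9 fell in P21_KO and 7 in P21_WT against P4_WT, where 4.68% and 0.852% of all genes fell. The 6 hair shaft keratin and trichohyalin genes were under the median of all values on every P21 array, at a mean of 2.59 to 2.76 in P21_KO and 2.61 and 2.65 in P21_WT, and read 6.96 and 4.79 in P4_WT. On the same P4_WT arrays the median deviations of core genes were 0.43 and 0.34, and those of cap genes 0.35 and 0.36. Keratinocyte markers were mostly higher at 21 days, 6 of 7 in P21_KO with a median of 0.52 and 5 of 7 in P21_WT with a median of 0.96. Krtdap, a keratinocyte gene, rose in P21_KO against P4_WT by 1.44 (limma adjusted p = 0.0232) and was the only one of the 7 to pass in either comparison. Of the 9 pigment cell markers, 5 fell in P21_KO against P4_WT, while Sox10, a transcription factor of the lineage, rose by 0.81 (limma adjusted p = 0.0333), and none passed in P21_WT. The part of dividing cells, of hair shaft cells, of keratinocytes and of pigment cells in the members' values was not tested.

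**Figure D4:**
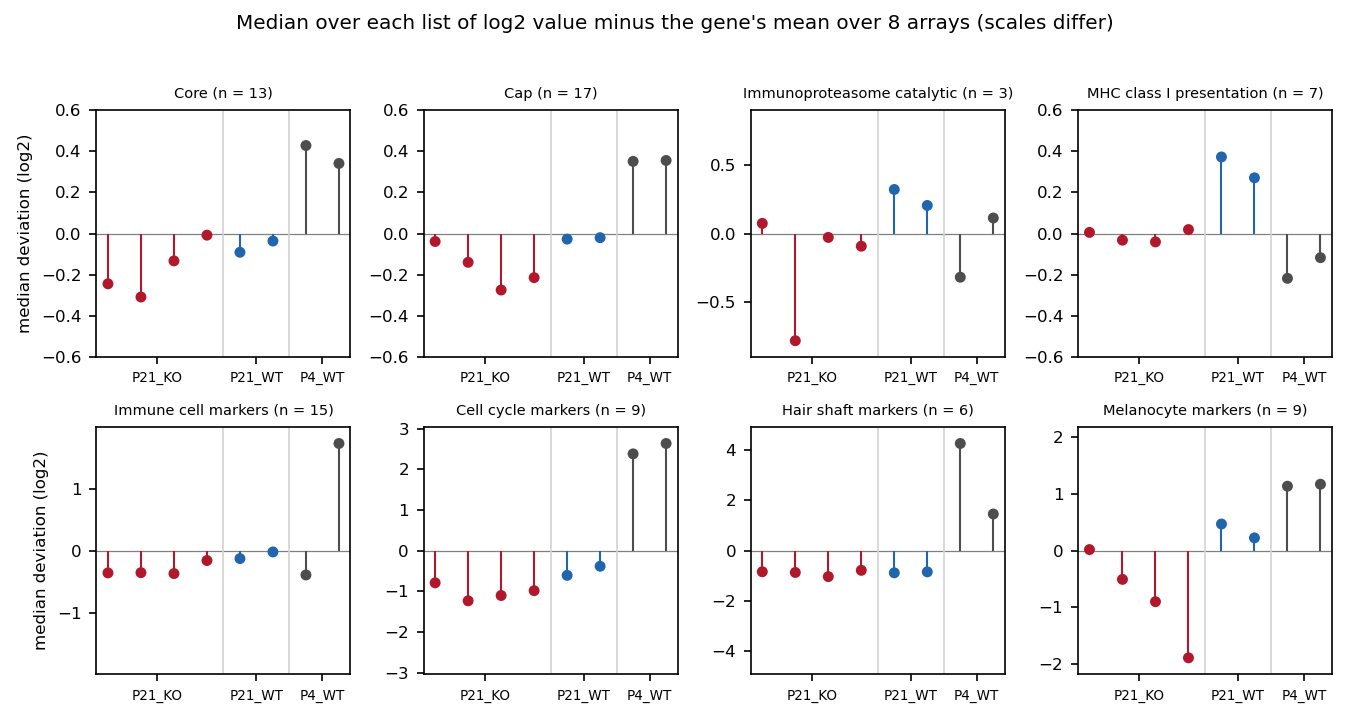
Median, over the genes of each list, of the log2 value minus the gene's mean over the 8 arrays, 1 point per array, with the number of genes (n) in each title and a scale per panel. Core and cap are highest on both P4_WT arrays, at 0.43 and 0.34 and at 0.35 and 0.36. Cell cycle and pigment cell markers are also highest there, while immune markers are high on P4_WT replicate 2 alone, at 1.73.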

How the data were processed

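Amplified RNA from sorted skin cells was measured on 8 arrays in 3 groups taken from the labels. The authors deposited log2 values. The submitters' processing notes name RMA and Affymetrix Expression Console, with neither order nor version given in the sources used here. Such normalization brings arrays toward a shared distribution, so each change is relative to the other genes of an array. Values ran from 0.913 to 12.2.

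The table had 41345 rows, of which the platform annotation gives 23521 exactly 1 symbol, 1814 several, and 16010 none here. Of the 1082 genes with several such rows, the row with the highest mean was kept, which left 22180 genes. With limma 3.58.1 in R 4.3.3, lmFit estimated 1 mean per group from the 8 arrays together, leaving 5 residual degrees of freedom, and eBayes gave two-sided p-values. These were adjusted after Benjamini and Hochberg across the 22180 genes, and a gene was called under 0.05. Precision is limited by the number of arrays. The fit was tested on simulated data. Groups do not overlap where every array of one lies below every array of the other, and brighter genes are those whose mean over the arrays is above the median of such means.

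The members and lists were chosen with earlier results of these data known, so no list is tested as a set. Genes were named with the value of every array for the catalytic, immunoproteasome and activator subunits and for the 5 members with the smallest p in each comparison. Other called members were added after their values were seen. Alternatives, 19 in all, covered a fit of only the groups compared, another prior, weighted arrays, 3 normalizations, a filter on dim genes, the mean of a gene's probe sets, 2 blocks, the threshold and leaving out each array. Promoters came from the RefSeq table on GRCm38.p6, 1 per gene. The other gene labelled fl/fl is not reported here.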

Additional observations from a re-analysis of the deposited data

Results flagged for a closer look

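Of 44 sets of 4 P21_KO values, 2 had 1 array apart from the other 3 by Dixon's criterion, which chance meets in about 1 of 20 such sets. Psme2, the PA28 beta subunit, read 6.52 on P21_KO replicate 4, against 6.12 to 6.18 on the other P21_KO arrays. Psmc3ip, the recombination cofactor that shares the symbol pattern, read 3.78 on P21_KO replicate 3, against 4.72 to 4.88 on the others.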

How the results depend on the processing

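Counts of called members by age in P21_WT against P4_WT were 0 with 1 array left out, 1 (Psmd8) with a trended and robust prior, 1 (Psmd8) with array weights and 2 at an adjusted p under 0.10. By genotype the count stayed at 0 under all alternatives. In P21_KO against P4_WT the 9 calls became 5 with quantile normalization, 4 with cyclic loess, 14 at an adjusted p under 0.10, and 2 to 7 with 1 array left out. With the replicate number as a block it was 0, and the block changed neither other count of called members. Deviations of same-numbered arrays correlated at -0.037 to 0.0057 across 22180 genes. With 2 arrays per wild-type group, these correlations cannot tell whether such arrays share more than a number. The fit with that block has fewer residual degrees of freedom. The cause of the shifts was not tested, and the share of all genes called under each alternative is not given here. The members' median kept its sign throughout. In P21_WT against P4_WT it was -0.28 with quantile normalization, -0.30 with cyclic loess and -0.44 to -0.35 with 1 array left out. In P21_KO against P4_WT it was -0.44, -0.43 and -0.60 to -0.47 under these, and by genotype -0.17 to -0.07 with 1 array left out.

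Sign reversals concerned changes that did not pass the test in their comparison. In P21_WT against P4_WT, quantile normalization gave 0.070 for Psmb10, 0.025 for Psmb9 and 0.025 for Psmc1, and cyclic loess 0.042, 0.0020 and 0.039. With 1 array left out, the ranges there were -0.14 to 0.031 for Psmb10, -0.85 to 0.73 for Psmb9, -0.13 to 0.00052 for Psmc1, -0.20 to 0.25 for Psmd7 and -0.64 to 0.27 for Psmb6. By genotype they were -0.37 to 0.47 for Psmb1, -0.61 to 0.30 for Psmb6, -0.14 to 0.30 for Psmd10, -0.49 to 0.19 for Psme3, -0.031 to 0.42 for Psmb10 and -0.045 to 0.27 for Psme4. In P21_KO against P4_WT they were -0.092 to 0.31 for Psma8, -0.13 to 0.70 for Psmb8 and -0.085 to 0.37 for Psmb10. Psmd10 was at -0.0048 by genotype with array weights, and Psmb10 at -0.018 by genotype and -0.071 in P21_KO against P4_WT with the replicate block. Groups of 2 arrays limit all comparisons.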

Other observations

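Probe sets not used for the 44 genes gave further values of proteasome genes. Psmc2, an ATPase of the cap, had a second probe set with 6.82, 6.52, 6.90 and 6.67 on the P21_KO arrays, 6.77 and 6.21 on the P21_WT arrays, and 7.40 and 7.27 on the P4_WT arrays. There both P4_WT arrays were highest, with log2 changes of -0.61 in P21_KO and -0.85 in P21_WT against P4_WT, where the brighter probe set gave -0.22 and -0.33. None of these 4 changes passed with limma.

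Psma4, the remaining alpha ring subunit, is listed only in 2 probe sets that also carry the symbol AY074887, so it is not a member. The brighter of them read 6.63, 6.35, 7.11 and 6.82 in P21_KO, 6.58 and 6.34 in P21_WT, and 7.13 and 6.80 in P4_WT. The P21_WT arrays lay below both P4_WT arrays, and P21_KO overlapped both groups. The other read 5.70 on P4_WT replicate 1, against 2.57 to 3.02 on the other 7 arrays. The second probe set of Psma5 read 1.79 to 2.24 on all arrays, and the one kept 1.87 to 3.80. A probe set for Psmd1 and Armc9 had a change of 0.52 in P21_WT against P4_WT, where the one kept for Psmd1 had -0.33. A probe set for Psme2 and 2 other symbols had -0.21 there, where the one kept for Psme2 had 0.24, and none of these 4 changes passed with limma.

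The tissue-restricted Psmb11, a core subunit of thymic epithelium, had means of 2.60 ± 0.11 over the 4 P21_KO arrays, 2.53 ± 0.22 over the 2 P21_WT arrays and 2.61 ± 0.22 over the 2 P4_WT arrays (SD), under the median of all values. Psme3ip1 had log2 changes of -0.27 in P21_KO and 0.10 in P21_WT against P4_WT, and Psmc3ip of -0.96 and -0.69, none of which passed with limma.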
